A study of Mus musculus with 6 samples.

Results

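The adhesion G protein-coupled receptors are a family of 30 genes in the deposited mouse table of 26264 genes, taken as every symbol that begins with Adgr, a letter and a digit, together with Celsr1, Celsr2 and Celsr3. RNA was measured by bulk sequencing in neural stem cells of the adult mouse spinal cord, cultured with EGF and FGF2 and separated by fluorescence-activated cell sorting. There were 3 GFP-positive libraries, labelled with the genotype PDGFRaGFP/+, and 3 GFP-negative libraries, labelled PDGFRaGFP/-, all on the C57BL6J background. The labels used here name no age beyond adult, and the labelled genotype and the sorted fraction cannot be told apart. The GFP reports Pdgfra, the platelet-derived growth factor receptor of oligodendrocyte precursor cells, and the study's question is the production of oligodendrocyte lineage cells. Titles give each library a number and an n of 1, 2 or 3, both shared by a GFP-positive and a GFP-negative library, here replicates 1, 2 and 3. Nothing says that these came from separate animals or cultures, and the p-values therefore reflect only how far these libraries scatter, which may be technical.

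Adhesion receptors carry a long extracellular region built from adhesion domains, an autoproteolysis site next to the membrane and a seven-pass membrane region. In many of them a short peptide behind that site, exposed when the outer fragment is pulled off by a ligand on a neighbouring cell or in the matrix, acts as a tethered agonist for G proteins. In the nervous system the family is known for synapse formation (latrophilins and the brain-specific Adgrb receptors), planar cell polarity (Celsr proteins), myelination by Schwann cells (Adgrg6) and, from mouse knockouts, proliferation of oligodendrocyte precursors (Adgrg1).

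Celsr3 and the latrophilins Adgrl3 and Adgrl1 were higher in GFP-positive cells, while Celsr1, Adgrg6, Adgre5, Adgrv1 and Adgrg1 were lower. Of the 30 genes, 20 passed the filter on low counts. Levels are given in CPM, read counts scaled to library size. Among these 20, 5 were higher and 9 lower in GFP-positive cells in edgeR's quasi-likelihood test (adjusted p below 0.05 over all tested genes), and 6 were not called. That is 25.0% higher and 45% lower of the tested receptors, against 26.1% higher and 29.2% lower, or 55.4% in either direction, of all 14554 tested genes. The median log2 fold change, GFP-positive over GFP-negative, was -0.45 over the tested receptors and -0.006 over all tested genes. Of the called receptors, 1 was higher and 5 were lower by more than 1 on the log2 scale, sizes that 6.07% and 12.3% of all tested genes reached. The groups did not overlap in 16 tested receptors, against 64.2% of all tested genes. There were 7 with all GFP-positive libraries above and 9 with all below, and 31.3% and 33.0% of all tested genes had these separations.

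**Figure D1:**
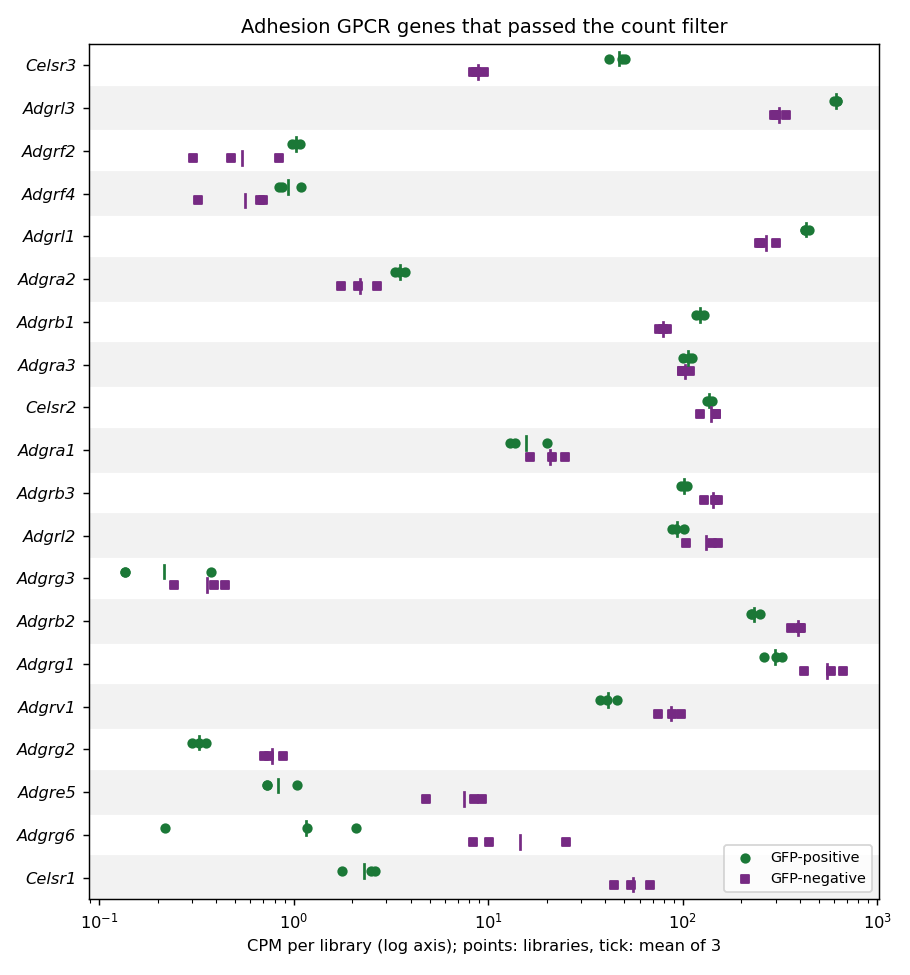
CPM (normalised read counts with TMM scaling, log axis) of the 20 tested receptor genes in each library, GFP-positive (circles) above GFP-negative (squares), with the mean of 3 libraries as a vertical tick; genes are ordered by log2 fold change. Celsr1 lies between 1.77 and 2.63 CPM in GFP-positive libraries, against between 44.3 and 67.7 CPM in GFP-negative ones, and Adgrg6 shows the widest scatter within the GFP-positive group.

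**Figure D2:**
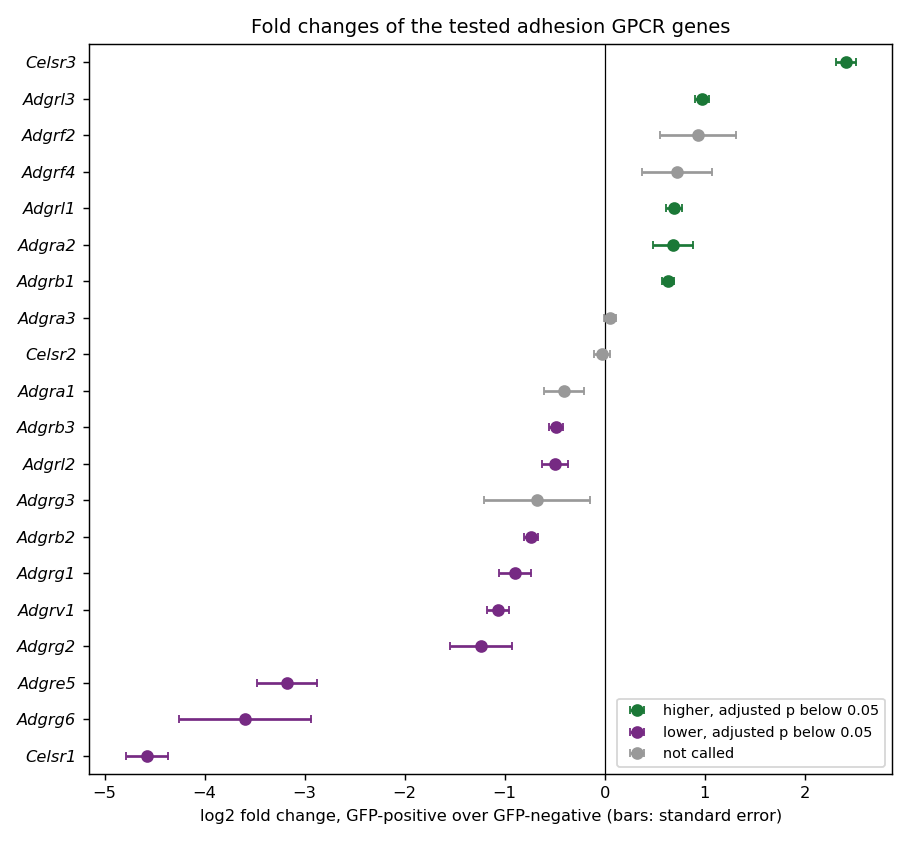
Log2 fold change, GFP-positive over GFP-negative, of the same 20 genes with its standard error (edgeR), coloured by call at adjusted p below 0.05. The values run from 2.41 for Celsr3 to -4.58 for Celsr1, members of a single subfamily.

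Bases around the start of transcription are shown for receptors of both directions, so that the genes behind the values can be read. RefSeq promoters on GRCm38.p6, a different build from the mm39 named for the counts, were found for 22 of the 30 genes. Printed are the 2 higher and the 2 lower called genes with the largest fold changes among those with a single promoter entry and a mean of at least 1 CPM in either group. They are Celsr3 (chr9:108825795-108826094, plus strand) and Adgrl1 (chr8:83899848-83900147, plus strand), both higher in GFP-positive cells, and Adgrg6 (chr10:14544987-14545286, minus strand) and Adgrv1 (chr13:81633095-81633394, minus strand), both lower. Each runs 5′ to 3′ from 250 bases before to 50 bases after the start, with any E-box (CANNTG, the same on both strands), the hexamer bound by basic helix-loop-helix factors such as Olig2, in capitals.
Celsr3: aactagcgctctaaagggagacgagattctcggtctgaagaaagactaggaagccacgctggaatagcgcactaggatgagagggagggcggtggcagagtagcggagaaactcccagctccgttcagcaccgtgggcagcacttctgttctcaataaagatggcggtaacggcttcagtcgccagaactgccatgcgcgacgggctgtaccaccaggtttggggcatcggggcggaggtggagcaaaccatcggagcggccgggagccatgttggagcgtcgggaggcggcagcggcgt
Adgrl1: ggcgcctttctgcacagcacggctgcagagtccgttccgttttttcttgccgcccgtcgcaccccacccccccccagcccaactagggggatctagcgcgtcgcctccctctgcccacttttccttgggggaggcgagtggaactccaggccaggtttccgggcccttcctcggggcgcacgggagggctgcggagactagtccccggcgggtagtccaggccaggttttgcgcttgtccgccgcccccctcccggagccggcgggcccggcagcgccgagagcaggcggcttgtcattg
Adgrg6: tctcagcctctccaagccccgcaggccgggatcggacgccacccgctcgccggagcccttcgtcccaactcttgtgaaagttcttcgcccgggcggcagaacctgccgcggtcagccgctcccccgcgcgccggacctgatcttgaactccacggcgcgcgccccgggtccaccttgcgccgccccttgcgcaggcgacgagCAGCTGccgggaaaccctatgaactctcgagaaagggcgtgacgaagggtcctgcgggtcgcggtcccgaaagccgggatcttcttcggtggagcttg
Adgrv1: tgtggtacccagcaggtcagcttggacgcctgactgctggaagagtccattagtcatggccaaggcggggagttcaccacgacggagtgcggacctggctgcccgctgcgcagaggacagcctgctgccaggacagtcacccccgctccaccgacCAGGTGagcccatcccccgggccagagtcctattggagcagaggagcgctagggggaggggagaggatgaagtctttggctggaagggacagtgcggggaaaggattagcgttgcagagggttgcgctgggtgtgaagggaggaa
The promoters of Adgrg6 and Adgrv1 held 1 E-box each and those of Celsr3 and Adgrl1 held 0. This split does not hold over the other called receptors with a promoter. Among lower genes, Adgrb2 held 0, Adgrl2 1, Adgrb3 2, Adgrg2 2 and the 2 promoters of Adgrg1 2 and 1. The 3 promoters of Adgrl3, a higher gene, held 0, 1 and 1. Celsr2, not called, held 3. Any link of E-boxes to direction was not tested. Of 32851 RefSeq promoters of this length, 72.3% held at least 1. All 4 printed promoters were rich in CG dinucleotides, with 25 in Celsr3, 28 in Adgrl1, 38 in Adgrg6 and 14 in Adgrv1, against a median of 7 over all promoters. A match describes the letters only.

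The Celsr genes encode the mammalian flamingo cadherins, which work with frizzled and Vangl proteins in planar cell polarity. They differed in opposite directions. Celsr1 (Entrez 12614, chromosome 15) had 1.77, 2.63 and 2.50 CPM in GFP-positive replicates 1, 2 and 3, against 54.1, 44.3 and 67.7 CPM in GFP-negative replicates 1, 2 and 3. Every GFP-positive library lay far below every GFP-negative one, with the log2 fold change at -4.58 (SE 0.21, edgeR adjusted p = 2.78e-06), or 23.9-fold lower. Celsr3 (Entrez 107934, chromosome 9), known for guiding axon tracts, had 50.5, 42.0 and 48.8 CPM in GFP-positive libraries against 9.55, 8.64 and 8.33 CPM in GFP-negative ones. It was higher in each same-numbered comparison, by 2.41 over all (SE 0.10, adjusted p = 2.16e-06). Celsr2 (Entrez 53883), a paralogue with roles in ependymal cilia and neurites, had 136, 134 and 141 CPM in GFP-positive libraries against 148, 123 and 148 CPM in GFP-negative ones, and its groups overlapped. Its log2 fold change was -0.03 (SE 0.08, adjusted p = 0.797), and the sign was turned in 4 of 9 fits on fewer libraries.

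Per kilobase of exon, a rough scale for comparing genes, Celsr2 was the most abundant Celsr gene in all 6 libraries. The length used is the union of all annotated exons of a gene, which can exceed that of the transcripts present. Shares and ranks between genes are therefore approximate. It made up 74.3% ± 1.33 of the summed Celsr level in GFP-positive libraries and 67.9% ± 2.29 in GFP-negative ones (SD, n = 3 each). Celsr3 contributed 24.4% ± 1.61 in GFP-positive and 4.14% ± 0.58 in GFP-negative libraries, and Celsr1 1.31% ± 0.29 in GFP-positive and 28.0% ± 2.85 in GFP-negative libraries. The shares of all 3 genes did not overlap between the groups. That of Celsr2 was 73.1% to 75.7% in GFP-positive and 65.2% to 69.2% in GFP-negative libraries. The summed Celsr share of the whole family was 6.68% ± 0.23 in GFP-positive and 6.35% ± 0.23 in GFP-negative libraries, with overlapping values.

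**Figure D3:**
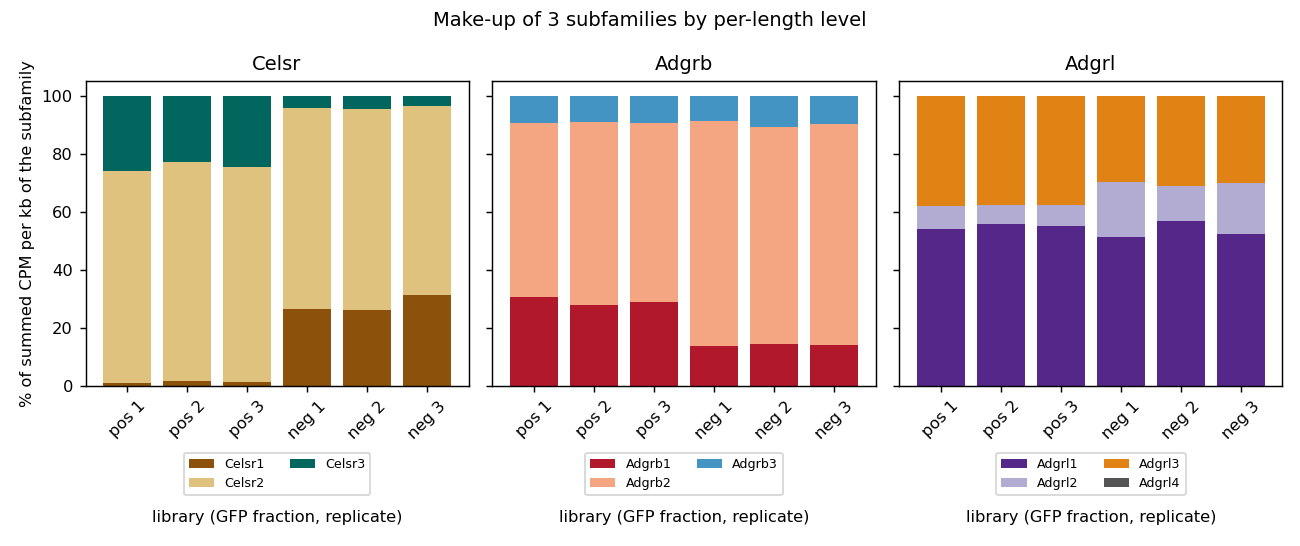
Share of each gene in the summed per-length level (CPM per kb of exon) of the Celsr, Adgrb and Adgrl subfamilies, in percent, for GFP-positive libraries (pos 1 to 3) and GFP-negative libraries (neg 1 to 3). Celsr1 is a thin band in GFP-positive bars and 26.2% to 31.2% of GFP-negative bars, and Adgrb1 takes 27.9% to 30.7% of GFP-positive bars and 13.8% to 14.2% of GFP-negative bars.

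Of 13 listed planar polarity partners, 12 were tested and 2 were higher, 5 lower in GFP-positive cells, at a median of -0.09. Those are 16.7% and 41.7%, against 26.1% and 29.2% of all tested genes, the shares to read beside each list below. Fzd6, a lower gene, passed the count filter through its GFP-negative counts. It had 12, 6 and 6 counts in GFP-positive libraries against 39, 39 and 36 in GFP-negative ones. The receptor Fzd3, which acts with Celsr3 in axon guidance in mice, was at 340 ± 18.9 CPM in the GFP-positive fraction against 472 ± 16.5 CPM in the GFP-negative one (SD, n = 3 each), the log2 fold change being -0.47 (adjusted p = 0.000328). Vangl1, a core polarity protein, had a value of -0.65, and Ankrd6, the homologue of fly diego, one of -1.02. The adaptor Dvl3 was higher by 0.34. Ptk7 lost its call without GFP-positive replicate 1, without replicate 1 and without replicate 3 (adjusted p up to 0.109).

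Latrophilins take their name from Adgrl1, a receptor of the spider toxin latrotoxin, and Adgrl1, Adgrl2 and Adgrl3 bind teneurins and FLRT proteins on facing cells. Adgrl3 (Entrez 319387, chromosome 5) had 617, 620 and 600 CPM in GFP-positive libraries, against 295, 340 and 301 CPM in GFP-negative ones. The GFP-positive values were close together, within a factor of 1.03, and all above the others. The log2 fold change was 0.97 (SE 0.07, adjusted p = 1.47e-05). Adgrl1 (Entrez 330814, chromosome 8) had 425, 445 and 424 CPM in GFP-positive libraries against 247, 301 and 253 CPM in GFP-negative ones, higher by 0.69 (SE 0.08, adjusted p = 0.00019). Adgrl2 (Entrez 99633) went the other way, at 101, 88.0 and 92.7 CPM in GFP-positive libraries against 152, 104 and 141 CPM in GFP-negative ones. Its log2 fold change of -0.50 (SE 0.13, adjusted p = 0.0118) was not called without replicate 1 (-0.43, 0.0667) or without replicate 3 (-0.43, 0.111). GFP-negative replicate 2, at 104 CPM, lay nearest to the GFP-positive libraries. Adgrl4, an endothelial receptor, had 0 counts in GFP-positive libraries and 1 in GFP-negative ones.

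Within the latrophilins, Adgrl1 made up 55.0% ± 0.77 of the per-length level in GFP-positive and 53.5% ± 2.99 in GFP-negative libraries (SD, n = 3 each). Adgrl3 made up 37.8% ± 0.24 in GFP-positive and 30.3% ± 0.78 in GFP-negative libraries, and Adgrl2 7.24% ± 0.55 in GFP-positive and 16.2% ± 3.77. in GFP-negative libraries Thus Adgrl3 took a larger and Adgrl2 a smaller part in every GFP-positive library, while the Adgrl1 parts overlapped. Exons of Adgrl1 overlap those of Gm10644 on the opposite strand over up to 1343 of 8587 bases. Adgrl3 shares 1582 of 17750 bases with the antisense gene Gm16054, and Adgrl2 202 of 14198 with Gm43573. Gm10644 was at 1.86 ± 0.11 CPM in the GFP-positive fraction against 2.72 ± 0.31 CPM in the GFP-negative one, and the strand setting of the counting is not given in the sources used here.

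Ligands of the latrophilins also differed in either direction: of 7 listed, 6 were tested, 3 higher and 1 lower, with a median of 0.91. Flrt3, an adhesion protein, was at 55.0 ± 1.65 CPM in the GFP-positive fraction against 19.7 ± 2.91 CPM in the GFP-negative one (SD, n = 3 each), higher by 1.48 (SE 0.10, adjusted p = 1.59e-05). Flrt1 was higher by 1.27. The teneurins were split. Tenm2 had 33.8, 33.4 and 26.4 CPM in GFP-positive libraries against 3.40, 7.20 and 2.92 CPM in GFP-negative ones, higher by 2.79 (SE 0.31, adjusted p = 0.000146). Tenm4, which is needed in mice for the myelination of small axons, had 13.9, 21.2 and 16.2 CPM in GFP-positive libraries against 64.4, 103 and 119 CPM in GFP-negative ones, with the log2 fold change at -2.48 (SE 0.24, adjusted p = 7.97e-05). Tenm3 had a value of 0.56 (adjusted p = 0.0648) and was called under the block on replicate number (0.61, adjusted p = 0.00378). The same call was made without GFP-negative replicate 1 (0.73), GFP-negative replicate 2 (0.32) or replicate 2 (0.40), and with no filter on low counts (0.57, adjusted p = 0.0253). Flrt2 was called higher without replicate 2 (0.27, adjusted p = 0.0345).

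The Adgrb receptors, first named brain-specific angiogenesis inhibitors, carry thrombospondin repeats. Adgrb1, a receptor that recognises phosphatidylserine on dying cells and signals through Elmo1 and Dock1, had 129, 123 and 117 CPM in GFP-positive libraries, against 79.5, 75.2 and 83.4 CPM in GFP-negative ones. It was higher by 0.63 (SE 0.06, adjusted p = 7.8e-05), with no overlap. Adgrb2 (Entrez 230775, chromosome 4) had 226, 249 and 224 CPM in GFP-positive libraries against 402, 358 and 407 CPM in GFP-negative ones, lower in every GFP-positive library, with the log2 fold change at -0.74 (SE 0.07, adjusted p = 7.23e-05). Adgrb3 (Entrez 210933, chromosome 1), the receptor of C1q-like proteins at cerebellar synapses, had 102, 105 and 98.5 CPM in GFP-positive libraries against 129, 147 and 152 CPM in GFP-negative ones, the log2 fold change being -0.49 (SE 0.07, adjusted p = 0.000551). The 3 calls held in all 15 alternative settings. As parts of the subfamily's per-length level, Adgrb2 stood at 61.5% ± 1.52 in GFP-positive and 76.2% ± 1.25 in GFP-negative libraries, Adgrb1 at 29.1% ± 1.42 in GFP-positive and 14% ± 0.21 in GFP-negative libraries, and Adgrb3 at 9.41% ± 0.12 in GFP-positive and 9.81% ± 1.05 in GFP-negative libraries (SD, n = 3 each).

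The ligand list of the Adgrb receptors had 4 tested members of 7, with 2 higher and 1 lower and a median of 0.24. The higher count was 4 with no filter on low counts, where C1ql2 and Rtn4rl2 were added. It was 3 in DESeq2 and without GFP-positive replicate 3, GFP-negative replicate 1, 2 or 3, or replicate 3, each time with C1ql2, which had 15, 23 and 4 counts in GFP-positive libraries against 1, 0 and 0 in GFP-negative ones. C1ql1, a secreted ligand of Adgrb3, had 126, 162 and 130 CPM in GFP-positive libraries against 4.40, 14.3 and 5.18 CPM in GFP-negative ones, so ligand and receptor differed in opposite directions (C1ql1 4.13, SE 0.40, adjusted p = 7.47e-05). C1ql3 was higher by 0.92 and the Nogo receptor relative Rtn4rl1 had a value of -4.47 (adjusted p = 9.9e-06). Of 6 listed effectors, 3 were higher and 2 lower, with a median of 0.25. Elmo1 was at 111 ± 5.53 CPM in the GFP-positive fraction against 39.7 ± 11.0 CPM in the GFP-negative one and its partner Dock1, a Rac exchange factor, at 135 ± 3.46 CPM in the GFP-positive fraction against 300 ± 12.7 CPM in the GFP-negative one (SD, n = 3 each), log2 fold changes of 1.48 (SE 0.17) and -1.15 (SE 0.05). Tiam1, another Rac exchange factor that binds Adgrb1, was higher by 1.28. Pard3, a polarity protein that binds Adgrb1, was called at 0.21 but lost that without GFP-positive replicate 2 or 3, without GFP-negative replicate 1 or 3, and without replicate 1 or 3 (adjusted p up to 0.196). Without GFP-negative replicate 2, C1ql1 stood at 4.87 in place of 4.13.

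The Adgrg subfamily held the most abundant receptor per kb and, among the tested ones, the one most variable between GFP-positive libraries. Adgrg1 (Entrez 14766, chromosome 8), also called GPR56, binds collagen III and transglutaminase 2 and couples to G proteins of the G12 family. It had 303, 263 and 324 CPM in GFP-positive libraries, against 575, 418 and 670 CPM in GFP-negative ones. The groups did not overlap, and the log2 fold change was -0.90 (SE 0.16, adjusted p = 0.00186). Replicate 2 was the lowest library in each group. Per kb of exon, Adgrg1 ranked first in both fractions, at 54.7 ± 5.71 CPM per kb in GFP-positive and 102 ± 23.5 in GFP-negative libraries (SD, n = 3 each). Its part of the whole family's per-length level was 22.8% ± 2.25 in GFP-positive and 36.1% ± 4.98 in GFP-negative libraries.

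Adgrg6 (Entrez 215798, chromosome 10), also called GPR126, raises cAMP and is required for myelination by Schwann cells. It had 0.218, 2.1 and 1.17 CPM in GFP-positive libraries, from 8, 95 and 43 counts, against 10.1, 25.1 and 8.36 CPM in GFP-negative ones. All GFP-positive libraries lay below all GFP-negative ones, but the values spread 9.62-fold within GFP-positive and 3.00-fold within GFP-negative libraries, with replicate 2 highest in both. The log2 fold change was -3.60 (SE 0.66, adjusted p = 0.00211). It was -2.94 without GFP-negative replicate 2 and -4.37 without GFP-positive replicate 2, and stayed called in all 15 alternative settings. Exons of Adgrg6 share 441 of 12228 bases with the antisense gene Gm46212. The 6 listed Schwann cell markers summed to 43.6 to 56.7 CPM in GFP-positive libraries, against 49.0 to 76.4 CPM in GFP-negative ones, with 4 tested, 0 higher and 2 lower. Ncmap, a myelin gene of Schwann cells, stood at 0.212 CPM or less in every library, and Cdh19 at 0.817, 0.662 and 1.47 CPM in GFP-positive libraries against 6.98, 7.87 and 10 CPM in GFP-negative ones. The part of this list in the Adgrg6 result was not tested.

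The remaining Adgrg genes had few counts. Adgrg2, known from the male reproductive tract, had 12, 16 and 11 counts in GFP-positive libraries against 29, 22 and 23 in GFP-negative ones. Its log2 fold change of -1.24 (SE 0.31, adjusted p = 0.00948) was not called without replicate 1 (-1.13, 0.0827) or without replicate 3 (-1.20, 0.0831). Adgrg3, a receptor of granulocytes and lymphocytes, had 5 to 17 counts in GFP-positive libraries, against 8 to 14 in GFP-negative ones, and was not called (adjusted p = 0.31). Adgrg3 and Adgrg5 are the neighbours of Adgrg1 on chromosome 8, and Adgrg5 had at most 3 counts in any library. The intestinal receptors Adgrg4 and Adgrg7 had at most 3 and 1.

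Ligands of Adgrg1 and Adgrg6 were lower in 5 and higher in 1 of 8 tested genes, with a median of -0.99. That is 62.5% lower and 12.5% higher, against 29.2% and 26.1% of all tested genes. The lower ones were Tgm2, Lama2, Lamb1, Lamc1 and Prnp, and a filter at a CPM of 1 in 3 libraries left 3 lower. Of the 5, Tgm2 and Lama2 passed the count filter only through their GFP-negative counts, so they entered the test on the lower side. The 62.5% is therefore not read as a result about the ligands. Lamc1, a laminin chain, was at 75.9 ± 5.14 CPM in the GFP-positive fraction against 158 ± 21.1 CPM in the GFP-negative one (SD, n = 3 each), the log2 fold change being -1.05 (SE 0.10, adjusted p = 7.05e-05), and Prnp, the prion protein, whose flexible tail activates Adgrg6, had one of -0.28 (adjusted p = 0.00667). Tgm2, a transglutaminase, had few counts, at 0.103 ± 0.08 CPM in the GFP-positive fraction against 1.03 ± 0.60 CPM in the GFP-negative one, and its value of -3.21 was -4.40 without replicate 2 and -2.34 without replicate 3. Lama2 also had few counts, 0, 2 and 6 in GFP-positive libraries against 18, 13 and 14 in GFP-negative ones. Its value of -2.74 was -2.08 without replicate 1 and -4.13 without replicate 3. Col4a1 was the higher member, at 0.44, with its call gone without GFP-positive replicate 1 or 2, GFP-negative replicate 3, replicate 2 or replicate 3 (adjusted p up to 0.117). Lama2 was not called without GFP-positive replicate 2 (adjusted p = 0.0507) or replicate 1 (0.0654), Lamb1 without replicate 1 (0.0766) and Prnp without replicate 3 (0.105). Col3a1, the collagen III gene, was not called (log2 fold change -3.52, adjusted p = 0.0801) and scattered widely, at 0.0272, 9.18 and 1.12 CPM in GFP-positive libraries and 0.758, 102 and 20.6 CPM in GFP-negative ones. Replicate 2 was highest in both fractions, as for Adgrg6. With the replicate block Col3a1 was called lower (-3.72, adjusted p = 9.74e-07), as it was without GFP-positive replicate 2 (-6.14), GFP-negative replicate 1 (-4.09), replicate 1 (-3.53) or replicate 2 (-4.19), and with no filter on low counts (-3.50, adjusted p = 0.0346).

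Adgre5, or CD97, is a leukocyte and epithelial receptor that binds CD55, Thy1 and integrins. It had 1.04, 0.729 and 0.734 CPM in GFP-positive libraries, against 9.34, 4.78 and 8.46 CPM in GFP-negative ones. The groups were well apart, with the log2 fold change at -3.18 (SE 0.30, adjusted p = 7.2e-05), or 9.04-fold lower. Its exons share up to 926 of 3757 bases with other genes, chiefly Ddx39a on the opposite strand, which stood at 38.1 ± 1.38 CPM in the GFP-positive fraction against 38.8 ± 4.18 CPM in the GFP-negative one (SD, n = 3 each) and was not called (adjusted p = 0.818). The listed ligands were lower in 3 of 3 tested genes, with Thy1 at -3.38, the integrin chain Itga5 at -4.81 (-5.44 without replicate 2) and its partner Itgb1 at -0.55. Among all tested genes, 29.2% were lower. Cd55 did not pass the count filter, at a mean of 0.0697 CPM in GFP-positive libraries, against 0.115 CPM in GFP-negative ones. Adgre1, the F4/80 antigen of macrophages, had 0 counts in GFP-positive libraries and 2 in GFP-negative ones, and Adgre4 had 0 in all 6. Of 15 microglia and macrophage markers, C1qa, C1qb, C1qc, Tyrobp and Trem2 were at 0 in every library, Ptprc and Aif1 reached 0.0319 CPM at most, and none of the 2 that were tested was called. The list summed to 3.79 to 5.17 CPM in GFP-positive libraries, against 2.94 to 5.80 CPM in GFP-negative ones. Of 6 lymphocyte and granulocyte markers, Cd3e, Cd3g, S100a8 and S100a9 were at 0 and 0 were tested.

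Adgrv1 (Entrez 110789, chromosome 13), the very large receptor mutated in a form of Usher syndrome and in mouse audiogenic seizures, had 37.5, 40.6 and 45.7 CPM in GFP-positive libraries, against 75.0, 88.4 and 97.5 CPM in GFP-negative ones. The groups did not overlap, and the log2 fold change was -1.07 (SE 0.11, adjusted p = 9.96e-05). The differences within replicates 1, 2 and 3 were -1.0, -1.12 and -1.09. Of its 2 tested partners, Whrn, a scaffold that binds its tail, was higher by 1.06 (adjusted p = 2.45e-05), opposite to the receptor. Pdzd7 was not called (-0.03, SE 0.50).

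In the Adgra subfamily, Adgra2 (Entrez 78560), or GPR124, is the receptor that joins Reck in Wnt7 signalling of brain vessels. It had 3.49, 3.75 and 3.32 CPM in GFP-positive libraries, against 1.76, 2.68 and 2.14 CPM in GFP-negative ones, higher by 0.68 (SE 0.20, adjusted p = 0.021). The groups did not overlap, but the call was lost in 6 of 9 fits on fewer libraries, with adjusted p up to 0.127; over those 9 the value ran from 0.55 to 0.86. The fits that lost it were those without GFP-positive replicate 1 or 2, without GFP-negative replicate 1 or 3, and without replicate 1 or 3. Of the 12 endothelial markers, 5 were tested, 0 higher and 2 lower, and they summed to 3.00 to 3.59 CPM in GFP-positive libraries, against 4.05 to 11.7 CPM in GFP-negative ones. Flt1, 1 of the 2 lower, passed the count filter through its GFP-negative counts, with 5, 5 and 15 counts in GFP-positive libraries. Cldn5 was at 0 in every library and Cdh5 reached 0.0648 CPM at most. Adgra3 (Entrez 70693) had 100, 111 and 108 CPM in GFP-positive libraries against 98.8, 99.3 and 109 CPM in GFP-negative ones, with the log2 fold change at 0.05 (SE 0.06, adjusted p = 0.492). Adgra1 (Entrez 52389), a receptor with a short extracellular part, had 13, 20.1 and 13.8 CPM in GFP-positive libraries against 16.4, 24.7 and 21.4 CPM in GFP-negative ones, with overlapping groups and replicate 2 highest in both. Its value was -0.41 (SE 0.20, adjusted p = 0.116), and with the replicate block it was called lower (-0.42, adjusted p = 0.00696). It was also called without GFP-positive replicate 2 (-0.63, 0.0233), GFP-negative replicate 1 (-0.56, 0.0487) and replicate 2 (-0.49, 0.0166).

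The Wnt7 complex of Adgra2 was tested in 6 of 6 genes, 2 higher and 3 lower, with a median of -0.27. Wnt7b was at 15.5 ± 2.98 CPM in the GFP-positive fraction against 80.4 ± 17.9 CPM in the GFP-negative one and Wnt7a at 18.3 ± 1.61 CPM in the GFP-positive fraction against 35.9 ± 5.88 CPM in the GFP-negative one (SD, n = 3 each), log2 fold changes of -2.38 (SE 0.20) and -0.97 (SE 0.13). The co-receptor Lrp6 was higher by 0.52 (adjusted p = 7.41e-05) and Reck, which recognises Wnt7, by 0.47, a call lost without replicate 1 (adjusted p = 0.0773). The receptor and Reck were thus higher in the fraction in which the ligands were lower. Fzd4, the third lower gene, lost its call without replicate 1 and without replicate 3 (adjusted p up to 0.127).

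Few counts limited the Adgrf subfamily. Adgrf2 had 36, 49 and 38 counts in GFP-positive libraries against 10, 15 and 26 in GFP-negative ones, and Adgrf4 had 32, 38 and 40 in GFP-positive libraries against 23, 21 and 10 in GFP-negative ones. In CPM every GFP-positive library was above every GFP-negative one for both genes, but neither was called, with the log2 fold changes at 0.93 (SE 0.38, adjusted p = 0.0682) and 0.72 (SE 0.35, adjusted p = 0.119). Adgrf2 was called without GFP-negative replicate 3 (1.41, adjusted p = 0.0193). The genes are neighbours on chromosome 17. Adgrf5, a receptor of lung epithelium and endothelium, had 0, 7 and 8 counts in GFP-positive libraries, against 1 in each GFP-negative library, Adgrf3 at most 10 and Adgrf1, the receptor of the lipid synaptamide, at most 5. Adgrd1, or GPR133, had 0 counts in GFP-positive libraries, against 4 in GFP-negative ones. None of the 10 genes below the filter had more than 10 counts in a library, each of which held at least 31067850 counts. A difference in them was not detectable at this depth, and where all libraries of a group had 0 counts, 3 counts over the group is the limit that counting error alone allows. Tested without a filter, the 9 of them with any count had adjusted p of 0.243 to 0.749.

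Compared per kb of the union of exons, and with ranks approximate for that reason, the same 4 genes led both fractions. In GFP-positive cells the order was Adgrg1, Adgrl1, Adgrb2 and Adgrl3, at 54.7 ± 5.71, 50.2 ± 1.34, 35.9 ± 2.11 and 34.5 ± 0.60 CPM per kb, where the leading pair and the next pair each differed by less than their spread. In GFP-negative cells it was Adgrg1, Adgrb2, Adgrl1 and Adgrl3, at 102 ± 23.5, 60.0 ± 4.15, 31.1 ± 3.42 and 17.6 ± 1.38 CPM per kb, with each mean apart from the next by more than their SDs (SD, n = 3 each). Celsr1 stood 17th among the 30 genes in GFP-positive and 10th in GFP-negative cells, and Celsr3 10th in GFP-positive and 15th in GFP-negative cells. The latrophilins together made up 38.1% ± 0.89 of the family's per-length level in GFP-positive and 20.8% ± 3.15 in GFP-negative libraries, and the Adgrg genes 22.9% ± 2.22 in GFP-positive and 36.6% ± 4.66. in GFP-negative libraries The level summed over the family was 239, 239 and 241 CPM per kb in GFP-positive libraries against 283, 252 and 307 in GFP-negative ones, lower in each GFP-positive library. In bulk samples fewer cells of a type and less RNA per cell cannot be told apart.

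G proteins and other downstream genes varied. Of 10 listed genes of the G12 family pathway, 2 were higher and 6 lower, with a median of -0.36. The alpha subunit Gna13 was at 124 ± 1.79 CPM in the GFP-positive fraction against 273 ± 14.8 CPM in the GFP-negative one (SD, n = 3 each), Rhoa had a log2 fold change of -0.72, Rhoc one of -2.30, and the exchange factor Arhgef11 was higher by 0.28. Rhob was called higher without GFP-negative replicate 2 (0.27) and without replicate 2 (0.24). Of 15 tested genes of Gs, Gi and adenylyl cyclases, 7 were higher and 3 lower, with a median of 0.52. Gnal was higher by 1.93 and Adcy6 by 0.52, and Gnai2 had a value of -0.74. With the replicate block Adcy1 (0.53, adjusted p = 0.000535) was also called higher and Adcy2 (-0.80, 0.00253) lower, and both calls were also made without GFP-negative replicate 2 (0.87 and -1.13) and without replicate 2 (0.61 and -0.94). Adcy2 was called lower as well with upper-quartile scaling (adjusted p = 0.0496), with no filter on low counts (0.027) and in DESeq2 (0.0131). Adcy7 was called higher when GFP-negative replicate 1 (2.30) or replicate 1 (2.48) was left out and with RLE scaling (1.53, adjusted p = 0.0492), and Adcy3 was not called without replicate 1 (0.50, adjusted p = 0.0558). Adcy7 had few counts, 13, 31 and 15 in GFP-positive libraries against 10, 4 and 2 in GFP-negative ones. The other higher genes were Gnai1, Adcy3, Adcy5, Adcy8 and Adcy9, and the other lower ones Gnas and Gnai3. Of 5 tested Gq and phospholipase C genes, Plcb1 was higher by 0.83, while Gnaq and Plcb3 had values not called, both at 0.15 (adjusted p = 0.0858 and 0.109). Gnaq was called higher without GFP-negative replicate 2 or replicate 2, both at 0.21, and Plcb3 without replicate 1, at 0.27. Gna14, below the count filter with all libraries, was called lower without GFP-negative replicate 1 and without replicate 1. Of 7 arrestins and receptor kinases, 5 were higher and 1 lower, with Arrb1 higher by 1.11, Grk5 by 1.30 and Grk3 at -3.02. Grk2 was called lower without replicate 2 (-0.17, adjusted p = 0.0428), with upper-quartile scaling (-0.16, 0.0324) and with a CPM of 1 in 3 libraries (-0.15, 0.039). Over all 12 lists, 29 of 84 tested genes were higher (34.5%) and 30 lower (35.7%). The shares over all tested genes were 26.1% for higher and 29.2% for lower.

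**Figure D4:**
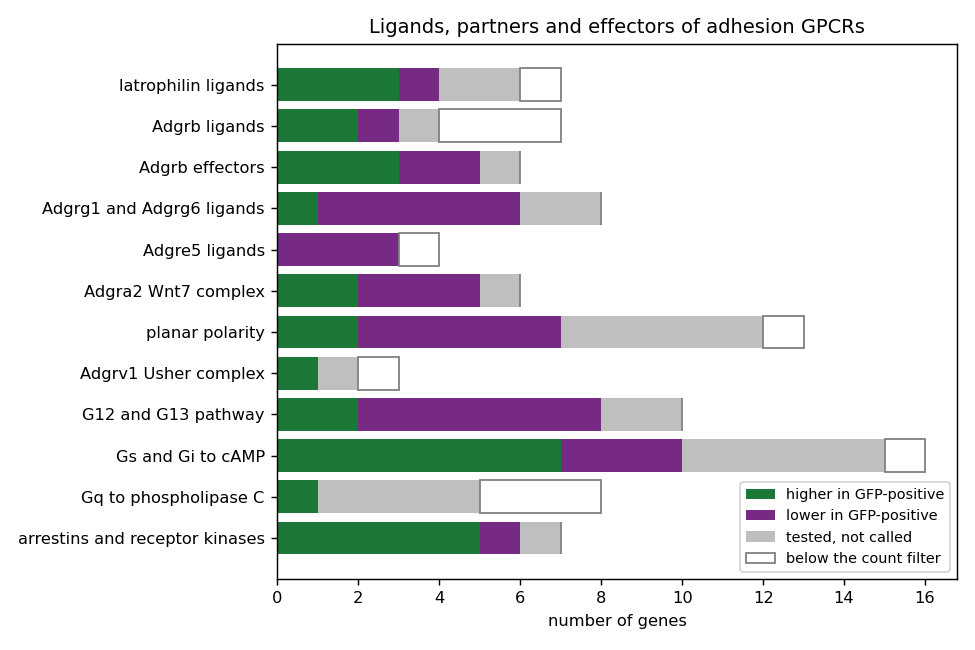
Number of genes in each list of ligands, partners and effectors that were higher or lower in GFP-positive cells, tested without a call, or below the count filter. The Adgre5 ligand list has 3 lower and 0 higher genes, and the arrestin and kinase list 5 higher and 1 lower.

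Markers of several cell types differed between the fractions. For comparison, 26.1% of all tested genes were higher and 29.2% lower in GFP-positive cells. Oligodendrocyte precursor markers were higher in 11 of 12 tested genes, with sums of 9370 to 9990 CPM in GFP-positive libraries against 6390 to 6470 CPM in GFP-negative ones. Ptprz1, the marker not called, held 2930 to 3330 CPM of these in GFP-positive libraries and 2930 to 3470 CPM in GFP-negative ones. Pdgfra, the gene behind the sort, is among the 11, so its direction was set by the sort. It had 237, 205 and 245 CPM in GFP-positive libraries against 8.04, 19.3 and 13.9 CPM in GFP-negative ones. Of 9 tested astrocyte markers 9 were lower, with sums of 484 to 609 CPM in GFP-positive libraries against 3880 to 4900 CPM in GFP-negative ones, and of 9 neural stem cell markers 8 were lower, with sums of 1740 to 1960 CPM in GFP-positive libraries against 5580 to 6320 CPM in GFP-negative ones. Ependymal markers were lower in 3 and higher in 1 of 4 tested genes of 8, at sums of 5.86 to 7.97 CPM in GFP-positive libraries against 16.8 to 24.8 CPM in GFP-negative ones, with Tmem212 and Pifo at 0. Neuronal markers were higher in 5 of 7 tested genes of 10, at sums of 142 to 150 CPM in GFP-positive libraries against 65.7 to 82.4 CPM in GFP-negative ones, with Slc17a6 at 0. Elavl4 alone held 95.2 to 106 CPM of these in GFP-positive libraries and 52.7 to 62.4 CPM in GFP-negative ones. Myelinating oligodendrocyte markers were higher in 3 of 4 tested genes of 8, at sums of 211 to 231 CPM in GFP-positive libraries against 127 to 178 CPM in GFP-negative ones. Cnp alone held 169 to 202 CPM of these in GFP-positive libraries and 107 to 158 CPM in GFP-negative ones, while Mog, Mag, Mobp and Opalin, genes of mature myelin, reached 0.265 CPM at most in any library. Fibroblast and mural markers were lower in 1 of 3 tested genes of 11, at sums of 1.01 to 1.39 CPM in GFP-positive libraries against 3.34 to 4.05 CPM in GFP-negative ones. Rsph1 and Col1a1, lower in the ependymal and the fibroblast and mural lists, passed the count filter through their GFP-negative counts. The part of these lists in the receptor results was not tested.

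GFP-negative replicate 2 lay nearest to the GFP-positive mean in 9 of the 14 called receptors, among them Adgrg1, Adgrl1, Adgrl2, Adgrl3, Adgre5 and Celsr1. Over all called genes it was the nearest in 56.9%. Sox10 was highest in replicate 2 of both groups, at 39.4, 93.6 and 45.4 CPM in GFP-positive libraries against 2.34, 12.5 and 3.53 CPM in GFP-negative ones. Pdgfra was highest in replicate 2 among the GFP-negative libraries and lowest in replicate 2 among the GFP-positive ones. Without that library 5 receptors were higher and 9 lower.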

How the data were processed

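The authors deposited 1 table of raw counts, with a column for each library and no normalization per the file headers. The submitters' processing notes name TopHat2 2.1.1, featureCounts 2.0.0 and SAMtools 1.9, and the build mm39. The labels' protocols name a stranded SMART-Seq kit. How strand, duplicates and multiply mapped reads were counted is not given in the sources used here, so reads of overlapping genes on opposite strands may be mixed. Total counts were 31067850 to 45207335 per library, and reads can be PCR copies, so depth limits cover counting error only.

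Samples were grouped by title. All 6 libraries entered one edgeR 4.0.16 fit (R 4.3.3) on the counts, with TMM scaling, filterByExpr, the quasi-likelihood F test and adjustment by Benjamini-Hochberg over all tested genes. The same code was also run on simulated counts with few changed genes, a common dispersion and no shared replicate effect, unlike these data. That run bears on the code only, and not on the p-values here. Standard errors were taken as the size of the log2 fold change over the root of F. CPM were computed from the counts with TMM scaling. CPM per kb used the union of exons in GENCODE M21 (GRCm38), matched by symbol for 30 of 30 genes. Libraries sharing a number deviated together, with correlations of 0.218, 0.355 and 0.159 across genes for replicates 1, 2 and 3. Pairs with unlike numbers had -0.306 to 0.128. The highest of these, GFP-positive replicate 3 with GFP-negative replicate 1, was close to the value for replicate 3. The main fit left the shared numbers out, and its values are printed unless the block is named. A fit with replicate number as a block was run as an alternative. Its adjusted p was 3.81e-05 for Adgrg6 (0.00211 in the main fit), 3.77e-05 for Adgrg1 (0.00186) and 0.00116 for Adgrl2 (0.0118). Among the called receptors it was larger than in the main fit for Adgrg2 (0.023 against 0.00948), Adgrb1 and Adgrb2. Other blocked values are printed where a call changed. No library repeated another: within groups, chi-square over its degrees of freedom was 9.83 to 34.2.

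The receptor family and the partner and marker lists were chosen with earlier results of these data known. Every receptor is reported. Partner and marker genes that are not named enter the counts, medians and sums of their lists. In each partner list the 3 genes with the smallest p and the called gene opposite to the list's median with the smallest p are named, and others were named after their values were seen. Alternatives were RLE and upper-quartile scaling, no filter, a CPM of 1 in 3 libraries, DESeq2 1.42.0, the replicate block, and leaving out each library or replicate number.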

Additional observations from a re-analysis of the deposited data

How the results depend on the processing

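Of the 14 called receptors, 11 kept their call in every one of the 15 alternative settings that tested them; the exceptions are Adgra2, Adgrg2 and Adgrl2, described with their values above. The count of higher receptors was 5, and 4 to 5 when a library or replicate number was left out; that of lower receptors was 9, and 7 to 10. With the replicate block 5 were higher and 10 lower, the added one being Adgra1, and no other receptor changed its call under the block. A CPM of 1 in 3 libraries removed Adgrg2, Adgrg3, Adgrf2 and Adgrf4 and left 5 higher and 8 lower. Celsr2, never called, turned from -0.03 to 0.00 without GFP-positive replicate 2, 0.02 without GFP-negative replicate 1, 0.03 without GFP-negative replicate 3 and 0.03 without replicate 1, and ran down to -0.10 without GFP-negative replicate 2; the cause was not tested. Over all genes, leaving out libraries gave 2450 (without replicate 3) to 4169 higher and 2951 to 4468 lower, against 3804 and 4254. Partner genes stood between 27 and 34 higher and between 27 and 33 lower in those fits, against 29 and 30. Depth limits the 10 genes below the filter, and per-length levels rest on the union of all annotated exons, from another build.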
